A study of Mus musculus with 8 samples.

Results

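The genes described here encode the proteasome: its subunits, its activators, its inhibitor and the chaperones that assemble it. They were taken as the array IDs whose name starts with PSMA, PSMB, PSMC, PSMD, PSME, PSMF or PSMG, which gave 43 of the 31492 IDs on a mouse Illumina bead array. Of these, 39 were detected and tested, among 9961 IDs tested in all. The name rule found no ID starting with PSMG, and it also brought in PSMC3IP, a recombination factor that is no proteasome gene.

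The cells were intestinal intraepithelial lymphocytes (IEL), T cells that lie between the epithelial cells of the gut, from C57BL/6 mice. IEL in every group had first been grown for 48 h on plate-bound antibody to CD3, the signalling complex that travels with the T cell receptor, at 1 µg/ml with IL-2, IL-3, IL-4 and IL-15. They were then kept in IL-2 alone for 14 days and sorted by receptor and CD8 chains. The 4 groups, with 2 arrays each, were CD8αα IEL returned to anti-CD3 (1 µg/ml) for 24 h, CD8αα IEL at 0 h, CD8αβ IEL after the same 24 h, and CD8αβ IEL at 0 h. The CD8αβ cells carry TCRαβ. For the CD8αα cells the labels disagree, giving TCRγδ in the protocol, TCRcd in the titles and TCRαα in the source names. No cells were kept for 24 h without anti-CD3, so an effect of anti-CD3 cannot be told apart from that of 24 h more in culture. Whether the replicates came from different mice or cultures is not given in the labels. The p-values therefore cover only the scatter of these 8 arrays, and that scatter may be technical.

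The proteasome breaks down proteins tagged with ubiquitin. Its core particle, the 20S, is a barrel of PSMA rings around PSMB rings, and it is capped by the 19S regulatory particle, in which PSMC ATPases unfold the substrate and PSMD subunits bind and remove the ubiquitin. In lymphocytes, and in other cells exposed to interferon γ, the catalytic subunits PSMB5, PSMB6 and PSMB7 can be replaced during assembly by PSMB8, PSMB9 and PSMB10, which gives the immunoproteasome. PSME1 and PSME2 form PA28αβ, an activator that is induced with them, and this form of the proteasome is known for making peptides that MHC class I presents.

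Background means of the 8 arrays were 65.9 to 75.9 intensity units, between 28.3 and 32.3% of all IDs were detected on each array, and the replicates of a group correlated with r of 0.953 to 0.963 across tested IDs. All values below are log2 signals after background correction and quantile normalization. Each ID has its own probes, so levels are compared between arrays and not between genes. The 39 tested members were detected on all 8 arrays, as read from the signal. By the deposited detection p-value, which does not rank the signal of IDs with several probes, 31 members would be tested. By that value PSMA3, PSMA5, PSMB2, PSMD5, PSMD8 and PSMD11 were detected on 0 of 8 arrays. Of 6 tested T cell markers, CD3D, CD3E, CD3G, LCK and CD2 were detected on all arrays. CD5 was detected on the 4 CD8αβ arrays and on 0 CD8αα arrays. CD2 and CD5 were lower in CD8αα than in CD8αβ IEL at 0 h, with log2 differences of −3.41 and −4.09 (limma, adjusted p = 0.0126 and 0.00991). CD8A was detected on 0 of 8 arrays. Both subsets were sorted as carrying CD8α, so this ID gives only a bound for its own probes. CD8B differed by a log2 value of −3.88 between CD8αα and CD8αβ IEL at 0 h (limma, adjusted p = 0.0632, and 0.00541 in a fit that blocks on replicate number). The δ chain segment TCRD-V1 was detected on the 4 CD8αα arrays and on 0 CD8αβ arrays.

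Start regions of 6 genes are printed because they belong to the immune catalytic subunits, to constitutive counterparts of them, and to the regulatory particle gene PSMC5, which rose in CD8αα IEL. The sequences come from RefSeq (GRCm38.p6), run 5′ to 3′ on the gene's strand and end at the base before the gene's start. They lie at chr17:34197945-34198194 on the plus strand (Psmb8), chr14:54617996-54618245 on the minus strand (Psmb5), chr17:34187331-34187555 on the minus strand (Psmb9), chr11:70525107-70525356 on the plus strand (Psmb6), chr8:105938393-105938642 on the minus strand (Psmb10) and chr11:106255935-106256184 on the plus strand (Psmc5). Capitals mark matches to the 4 motifs given after them.
Psmb8: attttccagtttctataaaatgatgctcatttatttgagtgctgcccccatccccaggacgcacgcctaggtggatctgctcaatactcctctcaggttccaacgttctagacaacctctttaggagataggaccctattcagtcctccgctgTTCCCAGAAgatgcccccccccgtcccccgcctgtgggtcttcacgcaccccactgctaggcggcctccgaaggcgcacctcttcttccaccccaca
Psmb5: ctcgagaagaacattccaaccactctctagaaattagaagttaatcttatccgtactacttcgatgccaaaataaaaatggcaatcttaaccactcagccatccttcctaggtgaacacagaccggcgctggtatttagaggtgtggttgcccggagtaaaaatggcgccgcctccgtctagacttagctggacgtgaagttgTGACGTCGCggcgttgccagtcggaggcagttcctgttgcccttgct
Psmb9: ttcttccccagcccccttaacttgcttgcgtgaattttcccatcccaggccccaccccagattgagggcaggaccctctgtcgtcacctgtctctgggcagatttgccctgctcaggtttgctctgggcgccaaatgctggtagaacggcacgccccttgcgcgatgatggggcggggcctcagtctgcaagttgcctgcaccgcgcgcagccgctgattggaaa
Psmb6: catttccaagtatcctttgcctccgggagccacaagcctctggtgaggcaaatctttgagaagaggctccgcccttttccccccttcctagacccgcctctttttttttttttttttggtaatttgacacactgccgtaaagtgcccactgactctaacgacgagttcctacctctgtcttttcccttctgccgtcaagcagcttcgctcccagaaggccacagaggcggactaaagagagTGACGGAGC
Psmb10: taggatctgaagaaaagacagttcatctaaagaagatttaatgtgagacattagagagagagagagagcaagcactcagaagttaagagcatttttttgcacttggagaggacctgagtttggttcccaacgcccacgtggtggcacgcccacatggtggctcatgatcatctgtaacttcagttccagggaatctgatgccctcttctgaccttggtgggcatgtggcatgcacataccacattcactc
Psmc5: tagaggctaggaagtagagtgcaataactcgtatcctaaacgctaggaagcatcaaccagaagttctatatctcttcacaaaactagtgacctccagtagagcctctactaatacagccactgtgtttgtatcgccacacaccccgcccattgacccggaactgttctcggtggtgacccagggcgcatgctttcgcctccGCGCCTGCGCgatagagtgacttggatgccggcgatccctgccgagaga

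Psmb9 and Tap1, a peptide transporter gene, run in opposite directions from the 225 bases shown, and the other windows are 250 bases long. Each motif was searched on both strands of the 250 bases before the start of every gene in the table, 32851 windows in all, of which 37 belong to members. The gamma activated site, TTCNNNGAA, found in genes that respond to interferon γ, was present in 7.02% of all windows and in 1 member, Psmb8, where the letters are TTCCCAGAA. The interferon response element, GAAANNGAAA, was present in 2.98% of windows and in 3 members, Psmb3, Psmd4 and Psmd9, with 0 among the 5 immune members. The core of the antioxidant response element, TGACNNNGC, which NFE2L1 and NFE2L2 bind, was present in 10.2% of windows and in 5 members, among them Psmb5 (TGACGTCGC) and Psmb6 (TGACGGAGC). The site of nuclear respiratory factor 1, GCGCANGCGC, was present in 3.74% of windows and in 6 members, all of them constitutive subunits, among them Psmc5, where it reads GCGCCTGCGC on the printed strand. The windows of Psmb9 and Psmb10 held none of the 4 motifs, and no printed matches overlap. A match describes the letters and is not a test of binding.

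After 24 h on anti-CD3 the constitutive subunits and the immune members stood apart in both subsets. Constitutive here means every tested subunit of the core particle or the regulatory particle other than PSMB8, PSMB9 and PSMB10. Of 26 constitutive subunits tested, 25 had a higher mean at 24 h in CD8αα IEL and 25 in CD8αβ IEL, with median log2 changes of 0.43 and 0.29. All 5 immune members (PSMB8, PSMB9, PSMB10, PSME1 and PSME2) had a lower mean at 24 h in both subsets, with median log2 changes of −0.41 in CD8αα IEL and −0.45 in CD8αβ IEL. The median change of all tested IDs was 0.01 and −0.02 in those subsets. Fewer cells of a type and less RNA per cell cannot be told apart in such bulk samples.

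Few members passed the test on their own in limma on the group means. In CD8αα IEL, 4 of 39 members passed an adjusted p of 0.05, 3 higher (PSMC5, PSMD7 and PSMD11) and 1 lower (PSMB10). With median scaling in place of quantile normalization the split was 5 higher and 0 lower, and with the submitters' log2 values 7 higher and 1 lower. No share of all IDs is given here for those settings, so their counts are not set against the background. In the fit with quantile normalization 9.3% of all IDs passed, 3.96% higher and 5.34% lower, so a share of 4 in 39 is near the background. At an unadjusted p under 0.05 there were 15 members higher and 2 lower, where all IDs gave 15% and 14.8%. Arrays of the groups did not overlap for 28 members that were higher and 5 that were lower at 24 h, beside 30.7% and 28.6% of all IDs. Arrays with the same replicate number deviated alike, and once limma was given that number as a block 16 members passed, 13 higher and 3 lower. All IDs then gave 35.9%, 18.1% higher and 17.8% lower, so the total of 16 in 39 is near the background. Of the constitutive subunits, PSMB7, PSMC1, PSMD1, PSMD2, PSMD8, PSMD12 and PSMD14 were called with the replicate block and not in the fit without a block.

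In CD8αβ IEL, 0 of 39 members passed in limma, where 3.04% of all IDs did, 1.8% higher and 1.24% lower. The lowest adjusted p was 0.0779, for PSMD11. With the replicate block 8 members passed, 6 higher (PSMC1, PSMC5, PSMD5, PSMD8, PSMD11 and PSMD12) and 2 lower (PSMB9 and PSMB10), beside 26.5% of all IDs, 12.5% higher and 14% lower. At an unadjusted p under 0.05 there were 6 members higher and 2 lower, beside 11.6% and 13.4% of all IDs, and arrays did not overlap for 26 members higher and 5 lower, beside 27.7% and 28.6%. Positive log2 changes, past the threshold or not, were found for 32 of 39 members in each subset, beside 50.7% of all IDs in CD8αα IEL and 48.5% in CD8αβ IEL, and negative ones for 7 in each, beside 49.3% and 51.5% of all IDs.

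**Figure D1:**
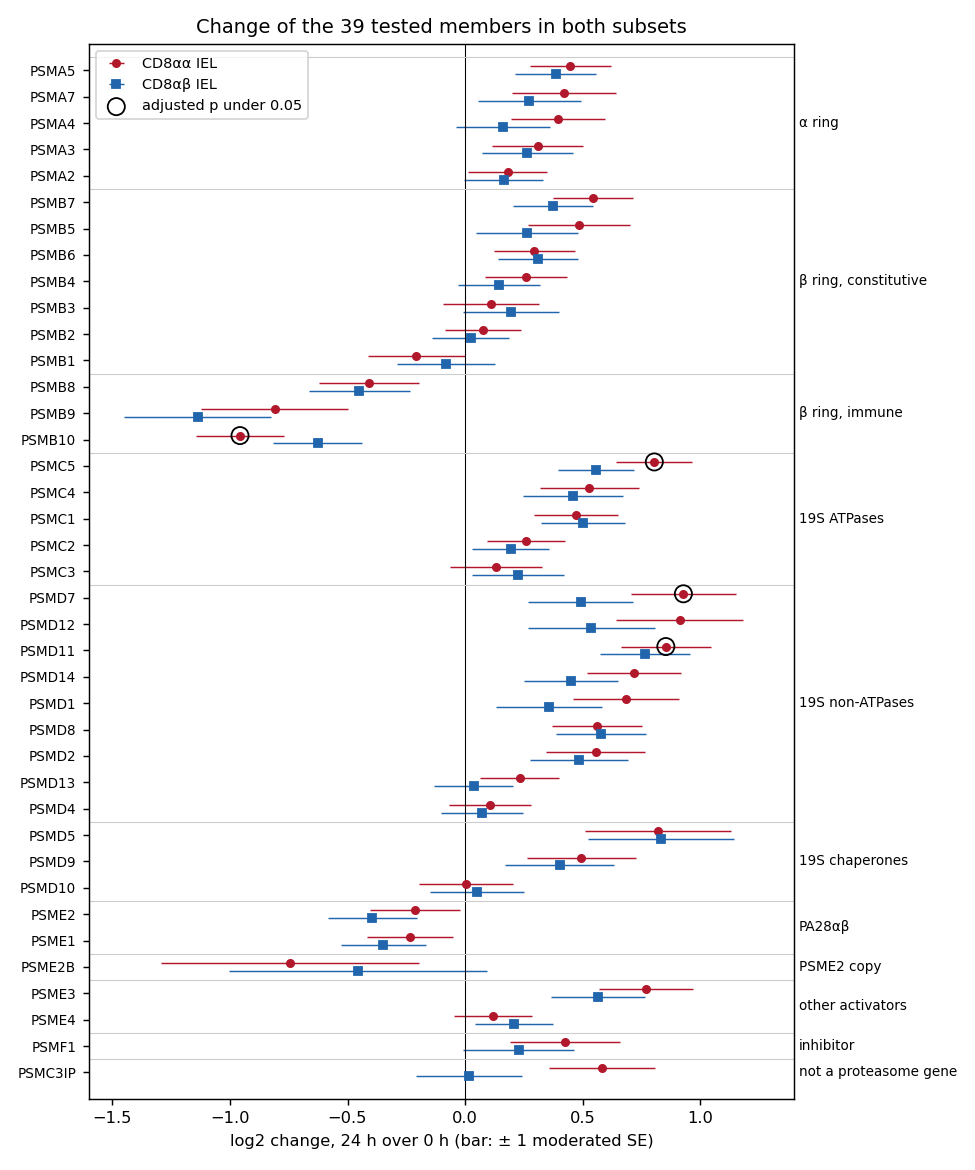
Log2 change at 24 h over 0 h (x axis) for the 39 tested members (y axis), grouped by role, in CD8αα IEL (red circles) and CD8αβ IEL (blue squares), with bars of 1 moderated SE and rings around the 4 changes with an adjusted p under 0.05 in the fit without the replicate block. The immune members PSMB8, PSMB9, PSMB10, PSME1 and PSME2 lie left of 0 in both subsets, and the non-ATPases reach 0.93.

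The mean of the 5 immune members minus the mean of the 26 constitutive subunits gives a single value per array. Of those 26 only PSMB5, PSMB6 and PSMB7 are replaced by immune subunits. The value is therefore no measure of immunoproteasome against constitutive proteasome. Relative to its mean in CD8αβ IEL at 0 h, that value was −0.86 and −0.80 in CD8αα IEL at 24 h, against 0.07 and 0.17 in CD8αα IEL at 0 h. It was −1.06 and −0.76 in CD8αβ IEL at 24 h, against −0.06 and 0.06 in CD8αβ IEL at 0 h. All 4 arrays at 24 h lay below all 4 arrays at 0 h.

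The difference between 24 h and 0 h was −0.95 in CD8αα IEL and −0.91 in CD8αβ IEL, and the pooled SD between replicates was 0.12. Within chips, the CD8αα difference was −0.92 on the first chip and −0.97 on the second, which held both CD8αα arrays of replicate 2. CD8αβ arrays were all on the first chip, and their difference was −0.999 between replicates numbered 1 and −0.81 between those numbered 2. The immune mean contributed −0.52 in CD8αα IEL and −0.59 in CD8αβ IEL (pooled SD 0.11), and the constitutive mean 0.43 and 0.32 (pooled SD 0.02). Between the subsets the value differed by 0.12 at 0 h and by 0.08 at 24 h (CD8αα minus CD8αβ), no more than the spread between replicates. Of its parts, the immune mean differed by 0.03 and 0.09, within its pooled SD. The constitutive mean differed by −0.09 at 0 h, beyond its pooled SD of 0.02, and by 0.02 at 24 h. At 0 h the CD8αα arrays had −0.06 on the first chip and −0.12 on the second, relative to CD8αβ IEL at 0 h. The second chip held no CD8αβ array, so chip and subset are partly mixed in this difference. The responses of the constitutive mean differed by 0.11 between the subsets. No p-value is given for these means, since 2 arrays against 2 allow an exact permutation p no lower than 0.333. Their members were also chosen with earlier results of these data known.

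**Figure D2:**
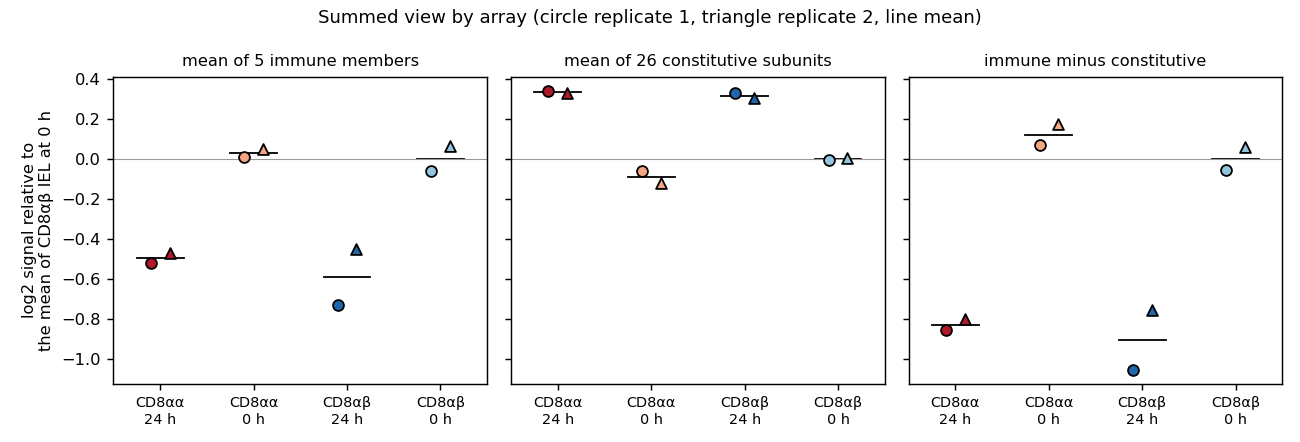
Mean log2 signal of the 5 immune members (left), of the 26 constitutive subunits (middle) and their difference (right) on each array, relative to the mean of CD8αβ IEL at 0 h (y axis), for the 4 groups (x axis). Circles are replicate 1, triangles replicate 2 and lines group means. In the right panel the 24 h arrays lie between −1.06 and −0.76 in both subsets, against −0.06 to 0.17 for the 0 h arrays.

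PSMB10, which takes the place of the trypsin-like subunit PSMB7, had log2 signals of 11.53 and 11.29 in CD8αα IEL at 24 h, against 12.30 and 12.44 in CD8αα IEL at 0 h. In CD8αβ IEL it had 11.45 and 11.44 at 24 h, against 11.95 and 12.20 at 0 h. Every 24 h array lay below every 0 h array of either subset. PSMB10 fell in CD8αα IEL by 0.96 on the log2 scale (SE 0.19, a 1.94-fold lower signal, limma adjusted p = 0.0334). In CD8αβ IEL the log2 change of −0.63 (SE 0.19) did not pass (limma, adjusted p = 0.107), but it did with the replicate block (0.0367). Its log2 change in CD8αα IEL was −0.77 on the first chip and −1.14 on the second, and with the chip as a block the adjusted p was 0.0349. Under median scaling the log2 change was −0.76 and did not pass (adjusted p = 0.0623).

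PSMB9, the counterpart of the caspase-like subunit PSMB6, had 10.66 and 10.97 in CD8αα IEL at 24 h, against 11.62 and 11.63 at 0 h. In CD8αβ IEL it had 10.21 and 11.11 at 24 h, against 11.68 and 11.91 at 0 h. The groups did not overlap in either subset, although replicate 1 of CD8αβ IEL at 24 h lay 0.90 below replicate 2. Its log2 changes of −0.81 in CD8αα IEL and −1.14 in CD8αβ IEL (SE 0.31 each) did not pass (limma, adjusted p = 0.139 and 0.0900). With the replicate block both passed (limma, adjusted p = 0.0336 and 0.0166).

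PSMB8, the counterpart of the chymotrypsin-like subunit PSMB5, had 12.52 and 12.45 in CD8αα IEL at 24 h, against 12.70 and 13.09 at 0 h. The CD8αβ arrays gave 12.36 and 12.65 at 24 h, against 12.87 and 13.04 at 0 h. Here too each 24 h array was below both 0 h arrays of its subset. The log2 changes were −0.41 and −0.45 (SE 0.21 each) and did not pass (limma, adjusted p = 0.247 and 0.246).

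The constitutive counterparts lay the other way. PSMB7 had 11.79 and 11.83 in CD8αα IEL at 24 h, against 11.32 and 11.21 at 0 h, and 11.69 and 11.87 in CD8αβ IEL at 24 h, against 11.45 and 11.36 at 0 h. Its log2 changes of 0.54 and 0.37 (SE 0.17 each) were not past the threshold (limma, adjusted p = 0.0903 and 0.233), and the groups did not overlap. With the replicate block the CD8αα change passed (limma, adjusted p = 0.0309). PSMB5 had 10.20 and 10.44 in CD8αα IEL at 24 h, against 9.65 and 10.02 at 0 h, and 10.23 and 10.03 in CD8αβ IEL at 24 h, against 9.75 and 9.97 at 0 h. Its log2 changes were 0.49 and 0.26 (SE 0.22 each), with adjusted p of 0.189 and 0.491 and no overlap within a subset. PSMB6 had 12.09 and 12.23 in CD8αα IEL at 24 h, against 11.88 and 11.86 at 0 h, and 12.19 and 12.09 in CD8αβ IEL at 24 h, against 11.89 and 11.76 at 0 h. Its log2 changes of 0.30 and 0.31 (SE 0.17 each) did not pass (limma, adjusted p = 0.291 and 0.306), with all 24 h arrays above all 0 h arrays.

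Set against its own counterpart on the same array, each immune catalytic subunit had a lower log2 ratio at 24 h. The ratio of PSMB10 to PSMB7 differed by −1.50 in CD8αα IEL and by −1.002 in CD8αβ IEL between 24 h and 0 h, with a pooled SD of 0.19. For PSMB9 to PSMB6 the differences were −1.10 and −1.45, with a pooled SD of 0.38, and for PSMB8 to PSMB5 they were −0.89 and −0.71, with a pooled SD of 0.21. These are changes in a ratio, so they do not show which of the paired genes moved.

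**Figure D3:**
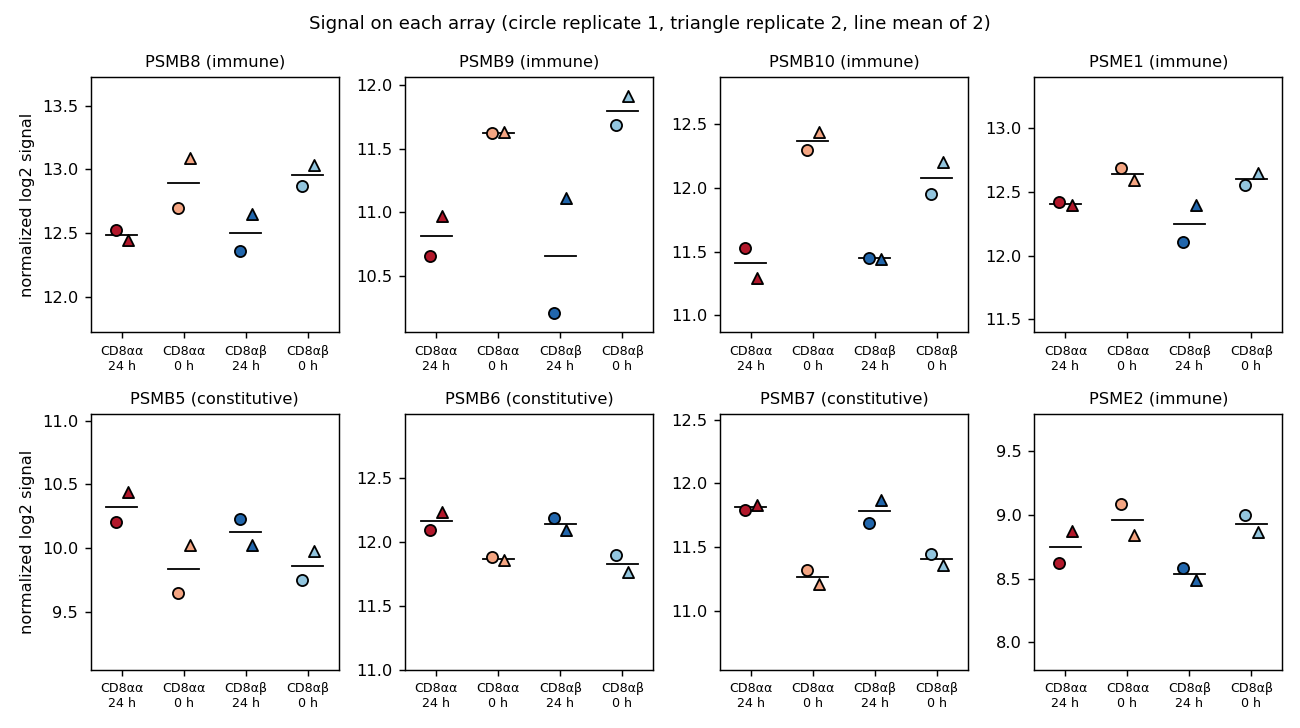
Normalized log2 signal (y axis) on each array for the 5 immune members and the catalytic constitutive subunits PSMB5, PSMB6 and PSMB7, by group (x axis), each panel on its own axis of equal span. Circles are replicate 1, triangles replicate 2 and lines the mean of 2 arrays. PSMB10 lies at 11.29 to 11.53 on the 24 h arrays, against 11.95 to 12.44 on the 0 h arrays, while PSMB7 lies at 11.69 to 11.87, against 11.21 to 11.45.

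The PA28αβ genes had smaller changes of the same sign. PSME1 had 12.42 and 12.39 in CD8αα IEL at 24 h, against 12.69 and 12.60 at 0 h, and 12.11 and 12.39 in CD8αβ IEL at 24 h, against 12.55 and 12.65 at 0 h. Its log2 changes were −0.23 and −0.35 (SE 0.18 each, limma adjusted p = 0.424 and 0.285), without overlap within a subset. Under median scaling the change in CD8αα IEL was −0.04. PSME2 had 8.62 and 8.87 in CD8αα IEL at 24 h, against 9.08 and 8.84 at 0 h, which overlap, and 8.58 and 8.49 in CD8αβ IEL at 24 h, against 8.99 and 8.86 at 0 h, which do not. The log2 changes of PSME2 were −0.21 and −0.39 (SE 0.19 each, limma adjusted p = 0.486 and 0.253). On the second chip alone its CD8αα change was 0.03, against −0.46 on the first.

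Of the α ring, which gates the core particle, 5 of 7 members were tested and 0 passed, and all 5 had positive changes in both subsets. Their median log2 change was 0.40 in CD8αα IEL and 0.27 in CD8αβ IEL. PSMA5 had the highest change in each subset, 0.45 and 0.39 (SE 0.17 each). The lowest were 0.18 for PSMA2 in CD8αα IEL and 0.16 for PSMA4 in CD8αβ IEL. Among the 7 constitutive β subunits 0 passed, or PSMB7 alone in CD8αα IEL with the replicate block, and the median log2 changes of 0.26 and 0.20 were the smallest of the constitutive groups. PSMB7 stood highest and PSMB1 lowest in both subsets. PSMB1, a noncatalytic β subunit, had 12.71 and 12.83 in CD8αα IEL at 24 h, against 12.88 and 13.08 at 0 h, and it was the one constitutive subunit with negative changes (−0.21 and −0.08, SE 0.21 each).

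The regulatory particle had the higher median changes, a comparison that was not tested. The ATPases, 5 of 6 tested, had median log2 changes of 0.47 in CD8αα IEL and 0.46 in CD8αβ IEL, and the non-ATPase subunits, 9 of 10 tested, had 0.68 and 0.49. All of these changes were positive in each subset. PSMC1, an ATPase, passed with the replicate block and not without a block (limma, adjusted p = 0.0478 in CD8αα IEL and 0.0489 in CD8αβ IEL with it). The same was true of PSMD8, a lid subunit (0.0335 and 0.0382). In CD8αα IEL this also held for the scaffold subunits PSMD1 (0.0436) and PSMD2 (0.0316) and for the deubiquitinase PSMD14 (0.0163). PSMC5, an ATPase of the hexameric ring, had 10.97 and 10.91 in CD8αα IEL at 24 h, against 10.14 and 10.13 at 0 h. It had 11.02 and 10.94 in CD8αβ IEL at 24 h, against 10.43 and 10.41 at 0 h. The replicates of a group lay close together (replicate 2 minus replicate 1 was −0.07 to −0.01), and all 24 h arrays lay above all 0 h arrays. PSMC5 rose in CD8αα IEL by a log2 value of 0.80 (SE 0.16, 1.75-fold, limma adjusted p = 0.0346), with 0.82 on the first chip and 0.78 on the second. In CD8αβ IEL its log2 change of 0.56 (SE 0.16) had a limma adjusted p of 0.1005 and did not pass, against 0.0276 with the replicate block. PSMC3 had the lowest ATPase change in CD8αα IEL, 0.13, and PSMC2 the lowest in CD8αβ IEL, 0.19.

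PSMD7, the lid subunit that pairs with the deubiquitinase PSMD14, had 11.18 and 10.70 in CD8αα IEL at 24 h, against 10.12 and 9.91 at 0 h. The CD8αβ arrays gave 10.92 and 10.76 at 24 h, against 10.42 and 10.27 at 0 h. All 24 h arrays lay above all 0 h arrays, and replicate 1 of CD8αα IEL at 24 h was the highest of the 8. PSMD7 rose in CD8αα IEL by 0.93 (log2, SE 0.22, 1.90-fold), just past the threshold (limma, adjusted p = 0.0497), by 1.07 on the first chip and 0.79 on the second. The CD8αβ change of 0.49 did not pass (adjusted p = 0.230). PSMD11, a lid subunit in contact with the core particle, had 8.04 and 8.14 in CD8αα IEL at 24 h, against 7.33 and 7.14 at 0 h, and 8.01 and 7.89 in CD8αβ IEL at 24 h, against 7.34 and 7.03 at 0 h. All its 24 h arrays were above all its 0 h arrays. It rose in CD8αα IEL by 0.85 (log2, SE 0.19, 1.81-fold, limma adjusted p = 0.0434), by 0.72 on the first chip and 0.99 on the second, and its CD8αβ change of 0.77 (SE 0.19) missed the threshold (adjusted p = 0.0779, and 0.0177 with the replicate block). PSMD4, a ubiquitin receptor, had the lowest change in CD8αα IEL, 0.11, and PSMD13 the lowest in CD8αβ IEL, 0.04.

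The 4 calls in CD8αα IEL rested on all arrays. When any 1 of the 8 arrays was left out, 0 members passed, with adjusted p of 0.0508 to 0.193 for PSMB10, 0.0507 to 0.189 for PSMC5, 0.0626 to 0.232 for PSMD11 and 0.0637 to 0.249 for PSMD7. With the chip as a block, 6 members passed (5 higher, 1 lower), PSMD12 and PSME3 in addition to those 4. Calls over all IDs rose in that fit as well, as given among the alternatives below. The count of members is therefore not read as a result about the members.

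PSMD12, another lid subunit, had 10.56 and 10.21 in CD8αα IEL at 24 h, against 9.74 and 9.21 at 0 h, and 10.58 and 10.36 in CD8αβ IEL at 24 h, against 10.14 and 9.72 at 0 h. Its groups did not overlap in either subset, and its log2 changes of 0.91 and 0.54 (SE 0.27 each) had adjusted p of 0.0781 and 0.268 (limma), or 0.00639 and 0.0406 with the replicate block. PSME3, a nuclear activator of the core particle that interferon does not induce, had 11.51 and 11.33 in CD8αα IEL at 24 h, against 10.79 and 10.51 at 0 h, and 11.38 and 11.65 in CD8αβ IEL at 24 h, against 10.99 and 10.90 at 0 h. All 24 h arrays again lay above the 0 h arrays, unlike those of its relatives PSME1 and PSME2. Its log2 changes were 0.77 and 0.57 (SE 0.20 each, limma adjusted p = 0.0577 and 0.145), and the CD8αα change passed with the replicate block (0.0178). PSME4, the large activator PA200, had 0.12 and 0.21.

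Among the regulatory particle chaperones, which help the ATPase ring assemble, the median log2 change was 0.49 in CD8αα IEL and 0.40 in CD8αβ IEL. PSMD5 had the highest, with 7.70 and 6.91 in CD8αα IEL at 24 h, against 6.69 and 6.29 at 0 h, and 7.71 and 7.46 in CD8αβ IEL at 24 h, against 6.91 and 6.60 at 0 h. Its groups did not overlap within a subset, and replicate 2 was below replicate 1 in all groups (replicate 2 minus replicate 1 was −0.79 to −0.25). The changes of 0.82 and 0.83 (SE 0.31 each) did not pass (limma, adjusted p = 0.135 and 0.164), but did with the replicate block (0.0152 and 0.0201). PSMD10 had the lowest, 0.00 in CD8αα IEL and 0.05 in CD8αβ IEL. PSMF1, an inhibitor of the core particle in vitro, had 0.43 and 0.23 (SE 0.24 each).

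The chaperones of the core particle are on the array under older names, and were looked up after the results were seen. Psmg1 (DSCR2) had log2 changes of 1.20 in CD8αα IEL and 0.63 in CD8αβ IEL (SE 0.60 each). Psmg2 (TNFSF5IP1) had 0.27 and −0.04 (SE 0.27 each). Psmg3 (1810042K04RIK) had 0.95 and 1.00 (SE 0.37 each), and none of these passed (limma, adjusted p = 0.144 to 0.942). With the replicate block Psmg1 passed in both subsets (limma, adjusted p = 0.00504 in CD8αα IEL and 0.0434 in CD8αβ IEL), and so did Psmg3 (0.0129 and 0.0158).

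PSMC3IP and PSME2B are set apart from the subunits. PSMC3IP had 10.64 and 10.15 in CD8αα IEL at 24 h, against 9.87 and 9.75 at 0 h, and 10.36 and 10.10 in CD8αβ IEL at 24 h, against 10.28 and 10.14 at 0 h. The groups overlapped in CD8αβ IEL and not in CD8αα IEL. The log2 changes were 0.58 and 0.02 (SE 0.23 each), and the first passed with the replicate block and not without a block (limma, adjusted p = 0.0298 with it). The difference between those changes, 0.57 (SE 0.32), was the highest of all members and did not pass (limma, unadjusted p = 0.121). PSME2B, a near copy of PSME2 whose probe may also read PSME2, had 8.30 and 9.51 in CD8αα IEL at 24 h, against 9.31 and 9.98 at 0 h, and 8.18 and 9.19 in CD8αβ IEL at 24 h, against 8.71 and 9.59 at 0 h. Replicate 2 exceeded replicate 1 by 0.67 to 1.20 in all 4 groups, so the groups overlapped in both subsets. With the replicate block, which takes out that offset, it was lower in CD8αα IEL past the threshold (limma, adjusted p = 0.0184).

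The IDs PSMA1, PSMA6, PSMC6 and PSMD3 were detected on 0 of 8 arrays, with raw signals of 50.9 to 73.6, and were not tested. Their genes are core components of every proteasome, so an undetected ID gives only a bound for its own probes.

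Across the 26 constitutive subunits, the log2 change went with the signal of the ID's probes. Spearman's rho between mean log2 signal over the 8 arrays and log2 change was −0.81 in CD8αα IEL and −0.84 in CD8αβ IEL, and Pearson's r was −0.71 and −0.81. The points share the same 8 arrays. The signal of an ID is set by its probes as well as by its transcript, so the relation does not order the genes by expression. The part of signal level in the changes of single subunits, or in the order of the role groups, was not tested.

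**Figure D4:**
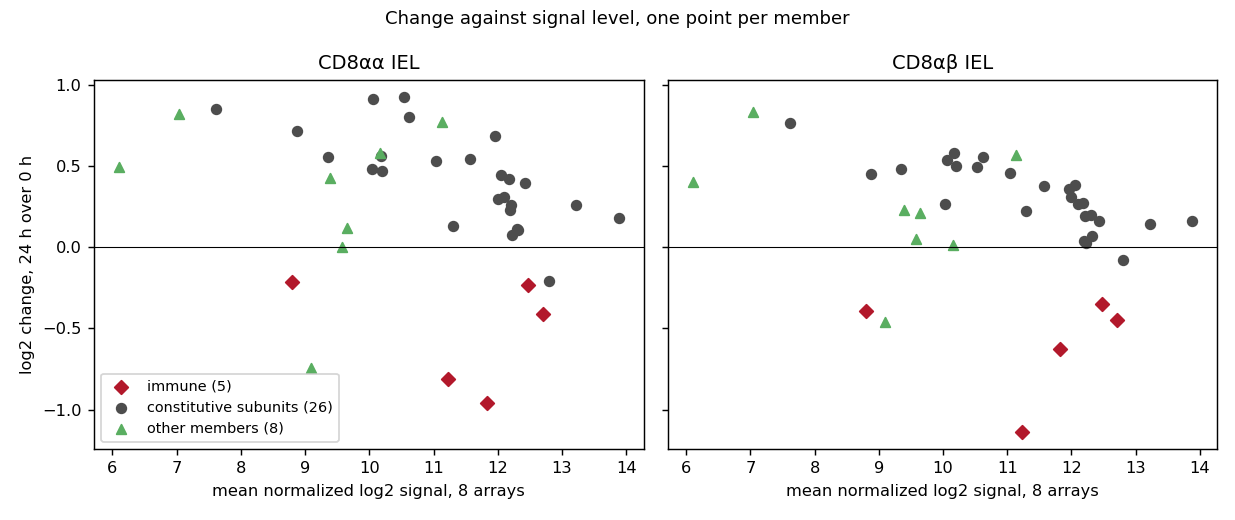
Log2 change at 24 h over 0 h (y axis) against mean normalized log2 signal of the ID's probes over the 8 arrays (x axis), 1 point per tested member, in CD8αα IEL (left) and CD8αβ IEL (right). The 26 constitutive subunits (dark circles) slope downwards, with rho of −0.81 and −0.84, and the 5 immune members (red diamonds) lie below 0.

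Between the subsets, 0 of 39 members passed in limma at 0 h or at 24 h, and 0 had an unadjusted p under 0.05 at either time. Of all IDs, 0.482% passed after adjustment at 0 h (0.231% higher and 0.251% lower in CD8αα IEL) and 0.321% at 24 h (0.1% higher and 0.221% lower). At an unadjusted p under 0.05 there were 4.19% higher and 2.85% lower at 0 h, and 2.07% higher and 1.96% lower at 24 h. At 0 h the median difference of the members (CD8αα minus CD8αβ) was −0.06, and at 24 h it was 0.01. Arrays of the subsets did not overlap at 0 h for 1 member that was higher in CD8αα IEL, PSMB10, and for 12 that were lower, beside 18.7% and 19.7% of all IDs. At 24 h this held for 4 members higher and 2 lower, beside 11.9% and 11% of all IDs. For PSMB10 the log2 difference was 0.29 at 0 h and −0.04 at 24 h (SE 0.19 each). The lowest member at 0 h was PSMD12, with a log2 difference of −0.46 (SE 0.27, limma adjusted p = 0.825). With the chip as a block the log2 difference of PSMD12 was −0.24.

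The difference of the responses (CD8αα minus CD8αβ) passed for 0 members and for 0 of all 9961 IDs, or 0% of them. At an unadjusted p under 0.05 there were 48 IDs with a higher difference (0.482%) and 118 with a lower one (1.18%), with 0 members among them. Its median over the members was 0.07. It ran from −0.33 for PSMB10 (SE 0.27) to 0.57 for PSMC3IP, with 0.33 for PSMB9 (SE 0.44) and 0.44 for PSMD7 (SE 0.32). A call in CD8αα IEL and none in CD8αβ IEL is therefore not a shown difference between the subsets. Both responses use their own 0 h arrays.

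Genes that supply or control the proteasome were read from lists chosen with earlier results known. NFE2L1, a transcription factor that switches on subunit genes when proteasome activity is short, had 10.71 and 10.67 in CD8αα IEL at 24 h, against 10.10 and 10.01 at 0 h, and 10.88 and 10.46 in CD8αβ IEL at 24 h, against 10.15 and 9.57 at 0 h. Its arrays did not overlap within a subset, and its log2 changes of 0.63 and 0.81 (SE 0.25 each) did not pass (limma, adjusted p = 0.151 and 0.116), but did with the replicate block (0.0368 and 0.0228). Of the 5 IDs for transcription of subunit genes, 3 were tested and 0 passed without the block. NRF1, nuclear respiratory factor 1, had 8.58 and 8.80 in CD8αα IEL at 24 h, against 8.84 and 8.80 at 0 h, and 8.55 and 8.77 in CD8αβ IEL at 24 h, against 9.01 and 9.10 at 0 h. Its CD8αβ arrays did not overlap and were lower at 24 h, and its log2 changes of −0.13 and −0.40 (SE 0.18 each) did not pass with or without the block (limma, adjusted p = 0.676 and 0.234 without it). DDI2, a protease that cuts and activates NFE2L1, had log2 changes of 0.60 and 0.31 (SE 0.22 each) that did not pass in either fit (limma, adjusted p = 0.123 and 0.412 without the block). The 5 proteasome cofactors on the array were all positive in both subsets, and 0 passed without the block. With it 3 passed in CD8αα IEL (ADRM1, UCHL5 and USP14) and 1 in CD8αβ IEL (ADRM1), beside 18.1% and 12.5% of all IDs called higher. ADRM1, a ubiquitin receptor of the regulatory particle, had log2 changes of 0.72 and 0.69 (SE 0.21 each, limma adjusted p = 0.0193 and 0.0279 with the block). Of 10 tested genes that make ubiquitin or deliver substrates, 7 were positive and 3 negative in each subset, and 0 passed with or without the block. POMP, the maturation factor of the core particle, was not analysed here.

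The genes that switch on the immune subunits did not all lie the same way. IRF1, a transcription factor that acts on the immune subunit genes, had 9.67 and 9.78 in CD8αα IEL at 24 h, against 11.29 and 11.51 at 0 h, and 8.66 and 9.60 in CD8αβ IEL at 24 h, against 10.71 and 10.77 at 0 h. Each 24 h array was below each 0 h array, and IRF1 fell by 1.68 in CD8αα IEL and by 1.61 in CD8αβ IEL on the log2 scale (SE 0.31 each, limma adjusted p = 0.0296 and 0.0490). IFNGR1, a chain of the interferon γ receptor, fell by 1.53 and 1.80 on the log2 scale (SE 0.23 each, limma adjusted p = 0.0243 and 0.0231).

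IFNG, which encodes interferon γ, had 15.21 and 15.08 in CD8αα IEL at 24 h, against 9.68 and 9.89 at 0 h. It had 15.53 and 15.53 in CD8αβ IEL at 24 h, against 9.03 and 13.38 at 0 h. The 24 h values lie near the highest of the listed genes (UBB, a ubiquitin gene, 15.53 to 15.68). How far the range of the array limits the IFNG changes was not tested. IFNG rose in CD8αα IEL by a log2 value of 5.36 (SE 1.20, limma adjusted p = 0.0434). In CD8αβ IEL, where one 0 h replicate was far above the other, the change of 4.33 did not pass (limma, adjusted p = 0.0923), but did with the replicate block (0.0277).

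The 4 peptide loading genes on the array, whose products act on proteasome peptides, all had negative changes in both subsets, and 0 passed in limma without the block. With it TAP2, the partner chain of TAP1, passed in both (limma, adjusted p = 0.0398 in CD8αα IEL and 0.0445 in CD8αβ IEL). TAP1, which faces Psmb9 across the 225 bases shown, had 8.62 and 8.67 in CD8αα IEL at 24 h, against 9.18 and 9.05 at 0 h, and 8.69 and 8.98 in CD8αβ IEL at 24 h, against 9.20 and 9.24 at 0 h. Its arrays did not overlap, and its log2 changes were −0.47 and −0.39 (SE 0.18 each, adjusted p = 0.144 and 0.243). The median of the list was −0.53 in CD8αα IEL and −0.45 in CD8αβ IEL.

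The T cell marker list was also lower at 24 h. Of 6 tested T cell markers, 5 had negative changes in each subset, with median log2 changes of −0.995 in CD8αα IEL and −0.49 in CD8αβ IEL. Their summed linear signal was 20603 to 33275 in CD8αα IEL at 24 h, against 45703 to 51473 at 0 h, and 23659 to 31395 in CD8αβ IEL at 24 h, against 39700 to 42398 at 0 h. CD3G had log2 changes of −1.23 and −0.94 (SE 0.31 each), and LCK, a kinase of the T cell receptor pathway, had −1.07 and −0.58 (SE 0.28 each). Neither passed without the replicate block (limma, adjusted p = 0.0570 to 0.249), and both passed with it in both subsets (0.00372 to 0.0260), as did CD3E. CD2, an adhesion receptor, fell in CD8αα IEL by 1.46 on the log2 scale (limma, adjusted p = 0.0409), and TCRD-V1 fell by 2.43 there (limma, adjusted p = 0.0421). CD5, the one marker with positive changes (0.08 and 0.83), passed in CD8αβ IEL with the block alone (limma, adjusted p = 0.0251). Its change in CD8αα IEL lies between arrays on which it was not detected. The part of these T cell genes in the change of the immune members was not tested.

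Sums of the B cell and epithelial markers were lower at 24 h as well, while those of the macrophage and dendritic cell markers overlapped between the times. Of 5 B cell markers, MS4A1, CD79A and PAX5 were detected on 0 arrays. CD79B and IGH-6 were detected, and IGH-6 fell in both subsets, with log2 changes of −3.33 in CD8αα IEL and −1.84 in CD8αβ IEL (limma, adjusted p = 0.00733 and 0.0293). The summed linear signal of the 5 was 525 to 533 in CD8αα IEL at 24 h, against 2034 to 2465 at 0 h, and 189 to 271 in CD8αβ IEL at 24 h, against 448 to 545 at 0 h. Of 9 macrophage and dendritic cell markers 6 were detected on 0 arrays, CSF1R, ITGAM, ITGAX and EMR1 among them, and CD68 (CD8αβ IEL) and H2-AB1 (CD8αα IEL) passed as lower with the replicate block alone (limma, adjusted p = 0.0495 and 0.0199). Their sum was 312 to 462 in CD8αα IEL at 24 h, against 418 to 796 at 0 h, and 310 to 403 in CD8αβ IEL at 24 h, against 372 to 734 at 0 h. Of 6 epithelial markers 5 were detected on 0 arrays. CDH1 fell in CD8αα IEL (log2 change −2.24, limma adjusted p = 0.0264), and its CD8αβ change of −1.86 did not pass (limma, adjusted p = 0.0570, and 0.00803 with the replicate block). The epithelial sum was 149 to 150 in CD8αα IEL at 24 h, against 250 to 391 at 0 h, and 139 to 164 in CD8αβ IEL at 24 h, against 241 to 271 at 0 h. Each sum counts its undetected IDs as well. Whether any such cells were present, and what part they had in the change of the immune members, was not tested.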

How the data were processed

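Total RNA of 8 samples was read on Illumina bead arrays after amplification and biotin labelling, per the labels' protocols. Per the file headers, the deposited intensity of an array ID is the mean signal of its beads, not normalized. The deposited bead numbers were treated as a score, and the deposited detection p-value compares an ID with negative control beads, per the file headers. The submitters also deposited log2 values, made with lumi per the submitters' processing notes (no version given in the sources used here). They served as an alternative, and 0 per-sample columns were left unused.

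Signals were background-corrected (normexp, offset 16), quantile-normalized and put on the log2 scale (limma 3.58.1 in R 4.3.3). The background was taken from 936 negative control bead types inferred through the 22828 IDs read as single-probe (72.5%). Detection (p under 0.01) was read from the signal through those IDs, because for IDs that average several probes the deposited detection p-value does not rank the signal. An ID was tested if both arrays of some group detected it. Members average several probes in 27 of 43 cases. Symbols came from Entrez IDs (26), accessions (12) or the platform table (5), and the bead SE of tested members was 2.14 to 8.62% of the signal.

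All 8 arrays entered a limma model of the 4 group means (4 residual degrees of freedom), with Benjamini-Hochberg adjustment at 0.05 over the 9961 tested IDs in each of 5 comparisons. SE is the moderated standard error. The model without a block was run on simulated data with independent errors. That run tested neither the replicate block nor deviations shared between arrays. The labels number the replicates 1 and 2 without saying what a number shares. The deviations of same-numbered arrays from their group means correlated for all 6 pairs of groups (r of 0.533 to 0.698 over all IDs), so the numbers were read from the data as a pairing, and the fit with the replicate number as a block is given where it changes a call. Members and lists were chosen with earlier results of these data known. Named with all arrays were the 5 immune members, PSMB5, PSMB6 and PSMB7. Named as well were members that passed or went undetected, the highest and lowest of each role, and listed genes that passed. NFE2L1, IRF1, TAP1, IFNG and POMP were always looked for, and some listed genes are not reported here. PSMD5, PSMD12, PSME3, PSMC3IP and PSME2B were given on every array after their values were seen. Alternatives were the background, scaling, filter, ID choice, chip and replicate block, single arrays left out, and the submitters' values.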

Additional observations from a re-analysis of the deposited data

How the results depend on the processing

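The direction of the immune minus constitutive difference at 24 h over 0 h was negative under every alternative run, from −1.17 to −0.89 in CD8αα IEL and from −1.06 to −0.76 in CD8αβ IEL. With PSMB8, PSMB9 and PSMB10 set against PSMB5, PSMB6 and PSMB7 alone it was −1.17 in CD8αα IEL and −1.054 in CD8αβ IEL, and with the background taken from all IDs it was −1.13 and −1.06. Leaving out 1 array gave −1.06 to −0.76 in CD8αβ IEL. Between the subsets at 24 h the difference had no stable sign, with −0.0503 for the 3 pairs alone and −0.0737 to 0.23 with 1 array left out, and the difference of the responses ran from −0.19 to 0.11.

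The number of members past the threshold was not stable. In CD8αα IEL, 4 of 39 became 8 (7 higher, 1 lower) with the submitters' log2 values, 2 with the filter on the deposited detection p, which tests 31 members, 2 with no filter, 0 on the first chip alone, where 0 of all IDs passed, and 0 to 0 when 1 array was left out. In CD8αβ IEL, 0 became 1 with the background from all IDs, with the submitters' values and with no filter. The causes were not tested, beyond the fewer arrays in some of these fits. For the submitters' values, median scaling and the filter on the deposited detection p, no count over all IDs is given here. Counts over all IDs moved too, from 926 to 413, 390 and 1332 in CD8αα IEL and from 303 to 157, 111 and 472 in CD8αβ IEL with the background from all IDs, no filter and the chip as a block, and to 0 and 44 on the first chip alone. With 1 array left out they were 0 to 715 in CD8αα IEL and 19 to 253 in CD8αβ IEL. The members' median log2 change of 0.40 in CD8αα IEL was 0.29 with the background from all IDs, 0.28 on the first chip alone, 0.51 with median scaling and 0.27 to 0.40 with 1 array left out. The median of 0.23 in CD8αβ IEL was 0.36 with median scaling. Leaving out PSMC3IP and PSME2B, an alternative chosen after seeing the data, left 4 and 0 calls.

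With the replicate block, 16 members (13 higher, 3 lower) passed in CD8αα IEL and 8 (6 higher, 2 lower) in CD8αβ IEL, beside 3576 and 2642 of all IDs, and 0 members in the other comparisons. All 4 members called without the block were called with it, and it changed no other call reported here beyond those given beside their results.

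With 2 arrays per group, the number of arrays limits the precision of each change, and the undetected IDs are limited by the background.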
